A study of Macaca mulatta with 5 samples.

Results

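Megabase loops are chromatin loops whose anchor midpoints lay 1 Mb or more apart. They were taken from the loop list of each treatment group by that distance alone, and made up 157 of 5507 loops in the saline map and 249 of 8425 in the morphine map, or 406 of 13932 in all. The sets of the 2 maps were kept apart and placed on the domain list of the same group.

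The study used Hi-C, an assay that joins and sequences DNA fragments lying close together in the nucleus, to look for altered chromatin architecture after chronic morphine. Neurons were purified from the cortex of male rhesus monkeys (Macaca mulatta) aged 3 to 4 years, with 2 monkeys in each group. The morphine group received subcutaneous morphine, an opioid receptor agonist, 3 times a day for 90 days at doses raised from 3 to 15 mg/kg, and the saline group received the same volume of saline on the same schedule. The morphine group gave 3 libraries and the saline group 2, and which of them share a monkey was not known.

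Each deposited list was taken as 1 map pooled over the libraries of its group. No value belongs to a single monkey, so no difference between the groups has a replicate check and no p-value was computed; all intervals are 95% intervals for counting error or for the spread among loops. Loops that lie near each other or share an anchor are not independent, which makes such intervals too narrow. Loop pixels summed to 119909 contacts for saline and 239042 for morphine, and library depths were not used here. The lists hold no expression values, so the neuronal identity was not checked. Positions are those of the deposited files, counted from 1, on a rhesus assembly that is not named; for this reason no gene or sequence is given at an anchor. Each loop is named by the first base of its left and right anchor.

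Most loops in mammalian nuclei form when cohesin extrudes chromatin until it meets CTCF bound at convergent sites, and such loops usually stay within a topologically associating domain (TAD), a stretch of chromosome whose loci contact each other more than they contact their surroundings. Very long loops are fewer. Some classes known from other work, such as contacts between distant Polycomb-bound genes in neurons, can reach past domain boundaries. Which class any loop here belongs to was not tested.

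Megabase loops formed a similar share of each map. They were 2.85% of saline loops (95% interval 2.43 to 3.33, exact Clopper-Pearson) and 2.96% of morphine loops (2.60 to 3.34), a difference of 0.105 percentage points with an interval of -0.479 to 0.664, and its sign turned with a span minimum of 1200 kb (2.03% and 2.02%) and under the strict limit on false discovery rates (4.30% and 4.10%). The morphine map held 1.59 times as many of them as the saline map (1.29 to 1.95), beside 1.53 times as many loops of any span (1.48 to 1.58) and 1.60 times as many loops of 500 kb to under 1 Mb (1.42 to 1.81). The larger number of megabase loops therefore went with a larger number of calls at all spans, in a map whose called loop pixels summed to more contacts. That sum itself rises with the number of loops. The part of depth in the larger number was not tested.

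The spans had the same middle in both maps. The median was 1360 kb in each, and the longest loops reached 3690 kb (saline) and 3680 kb (morphine). Between 1 and 1.5 Mb lay 97 saline and 152 morphine loops, between 1.5 and 2 Mb 32 and 49, and at 2 Mb or more 28 and 48, of which 11 and 15 spanned 3 Mb or more. Fewer loops lay just above the limit used to choose them than just below it. There were 33 saline and 58 morphine loops of 900 to under 1000 kb, and 26 and 41 of 1000 to under 1100 kb. The longest loop left out spanned 990 kb (saline) and 995 kb (morphine), and the shortest kept 1010 and 1000 kb.

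**Figure D1:**
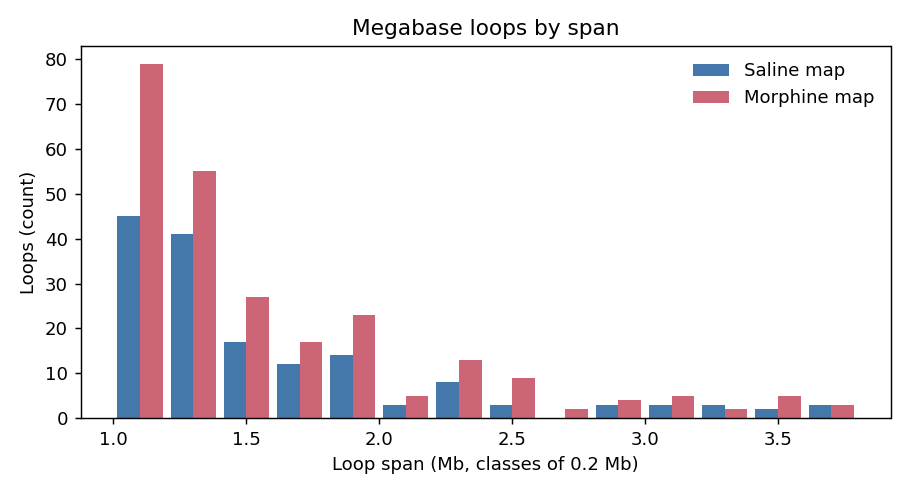
Number of megabase loops (vertical axis) by loop span in Mb (horizontal axis) in the saline and morphine maps. Counts are highest at the shortest spans in both maps, and the longest loops end at 3690 kb (saline) and 3680 kb (morphine).

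Megabase loops rested on few contacts. The median was 14 contacts per loop in the saline map (13 to 16) and 16 in the morphine map (15 to 17), with ranges of 9 to 189 and 8 to 153. In the saline map 51 loops (32.5%) held 12 contacts or fewer, against 57 (22.9%) in the morphine map, and only 6 and 7 loops held 50 or more. Most single loops were therefore measured with wide counting error. Summed, megabase loops carried 3025 of the saline and 5068 of the morphine loop contacts, which is 2.52% and 2.12%.

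Enrichment, the contacts of a loop divided by those expected from the donut-shaped surroundings of the loop pixel, was higher at megabase loops than at shorter ones. Its median was 8.89 in the saline map (7.73 to 9.58) and 7.27 in the morphine map (6.62 to 7.98), against 6.57 (6.28 to 6.89) and 5.33 (5.12 to 5.52) at loops of 500 kb to under 1 Mb. It was higher again at the longest loops: 21.7 (11.5 to 35.7) in the saline and 13.8 (8.35 to 26.0) in the morphine map at spans of 2 Mb or more, against 7.68 and 6.09 between 1 and 1.5 Mb. Contacts hardly varied with span while expected contacts were lower at long spans. Across megabase loops Spearman's correlation of span with enrichment was 0.366 over 157 saline loops and 0.296 over 249 morphine loops, with contacts 0.112 and 0.0805, and with expected contacts -0.166 and -0.218; loops of 1 map share its libraries and its caller.

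Expected contacts were low. The median was 1.73 (saline) and 2.24 (morphine), and they were under 1 in 38 saline loops (24.2%) and 56 morphine loops (22.5%), and under 0.5 in 21 and 25. No listed loop of either map had fewer than 8 contacts, so enrichment over such a background could only be high, and it depends on a small expected number that comes without an error in the files.

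The local backgrounds differed more at megabase loops than at shorter ones. The highest of the 4 backgrounds (donut, lower left, horizontal, vertical) was 1.86 times the lowest in the median saline loop and 1.68 times in the median morphine loop, against 1.52 and 1.45 at 500 kb to under 1 Mb. Set against its highest background, the median megabase loop was still enriched 6.32-fold (5.69 to 6.91) in the saline and 5.13-fold (4.72 to 5.59) in the morphine map, and only 1 loop in each map fell under 2-fold.

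Megabase loops more often passed a strict limit than the next shorter class, and more often were a single pixel. All 4 false discovery rates given by the authors' caller were at or under 0.01 in 111 saline (70.7%) and 157 morphine megabase loops (63.1%), which was 15.3 (6.41 to 23.4) and 10.1 (2.92 to 17.0) percentage points above loops of 500 kb to under 1 Mb. The highest rate of any member reached 0.475 (saline) and 0.499 (morphine), so the lists hold megabase loops that missed a strict limit against at least 1 background. A single pixel, with no neighbouring pixel merged into it, made up 61 saline (38.9%) and 76 morphine loops (30.5%), 12.9 (4.42 to 21.7) and 8.90 (2.61 to 15.6) points above the shorter class. Anchors of 5 kb, the finer of the caller's sizes, were used for 13 saline (8.28%) and 42 morphine loops (16.9%); all others had anchors of 10 kb.

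**Figure D2:**
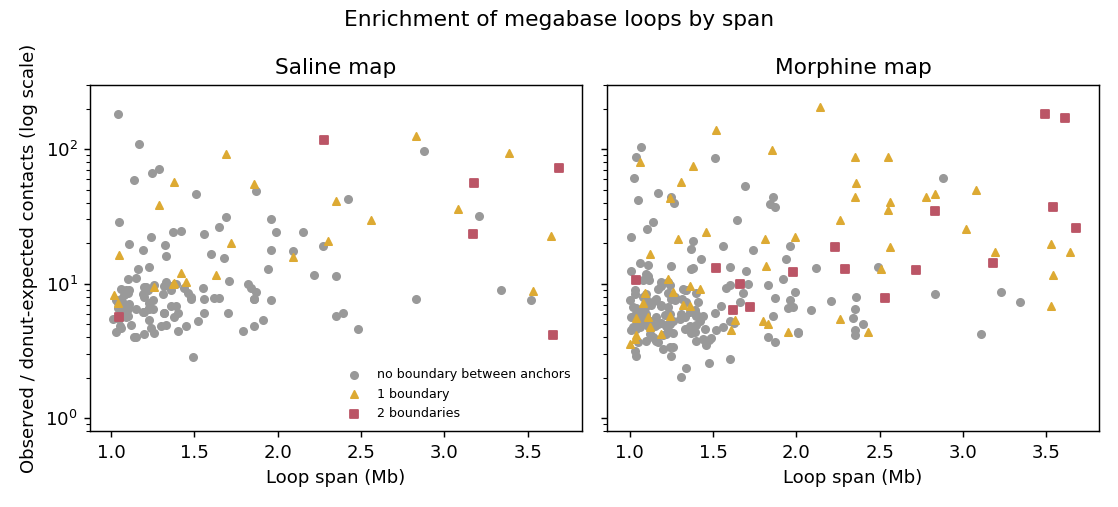
Observed over donut-expected contacts (vertical axis, log scale) against span in Mb (horizontal axis); each point is a megabase loop, saline on the left and morphine on the right, with triangles for loops over 1 boundary and squares for loops over 2. Enrichment ranged from 2.84 to 183 in the saline map and from 2.02 to 206 in the morphine map, and loops over a boundary had higher medians (20.9 and 13.2) than loops inside a domain (7.73 and 6.33).

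The longest loop of both maps was the same contact. On chromosome 13 the saline loop from 71440001 to 75130001 held 11 contacts at 71.9-fold enrichment, and the morphine loop from 71450001 to 75130001 held 11 at 26.0-fold. A pair of sites on chromosome 8, at 47860001 and 51500001, spanned 3640 kb in both maps, with 59 contacts (22.5-fold) in the saline and 101 contacts (17.1-fold) in the morphine map. This was the best measured of the very long loops, built from 10 merged pixels in each map. Beside it the saline list held a weaker loop from 47830001 to 51480001, of 3650 kb, with 30 contacts (4.14-fold).

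The remaining longest loops lay on chromosomes 2, 3 and 10. On chromosome 2 the saline map held loops from 175520001 to 179050001 (3530 kb, 30 contacts, 8.88-fold) and from 175550001 to 179070001 (3520 kb, 25 contacts, 7.54-fold). The first had a morphine partner with the same anchors (26 contacts, 6.85-fold), and another morphine loop ran beside it from 175530001 to 179070001 (3540 kb, 25 contacts, 11.6-fold). A morphine loop between 48300001 and 51910001 on chromosome 3 (3610 kb, 12 contacts, 171-fold) and another between 61910001 and 65450001 on chromosome 10 (3540 kb, 23 contacts, 37.4-fold) had no saline partner. The first of these had an expected value of only 0.0700 contacts.

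The loop with the highest saline enrichment was also found after morphine. On chromosome 20, between 30200001 and 31240001, it held 56 contacts where 0.306 were expected, a 183-fold enrichment (138 to 238, exact Poisson interval of the contacts), and in the morphine map 76 contacts where 0.874 were expected (87.0-fold). Its contacts were among the 5 highest of either map, so this enrichment does not rest on a handful of contacts. The other saline loops of highest enrichment were a chromosome 3 loop from 123320001 (126-fold, 12 contacts), chromosome 7 loops from 53080001 (116-fold, 15 contacts) and 167960001 (109-fold, 18 contacts), and a chromosome 10 loop from 71240001 (97.1-fold, 19 contacts). All 4 had a partner in the morphine map.

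In the morphine map the highest values belonged mostly to loops without a saline partner. These were the loop on chromosome 15 from 5140001 to 7280001 (27 contacts where 0.131 were expected, 206-fold, 136 to 300), the loop on chromosome 7 from 52630001 to 56120001 (24 contacts, 182-fold), the chromosome 3 loop of 3610 kb named above, and the loop on chromosome 18 from 63835001 to 64900001 (15 contacts, 103-fold). Only the loop on chromosome 19 from 14710001 to 16225001 (14 contacts, 140-fold) was matched. All 5 had an expected value under 0.5. Of all 249 morphine megabase loops, 154 had no saline partner. As a set these were less enriched than the matched ones, with a median of 6.47 (5.67 to 7.33) against 8.59 (7.40 to 10.4).

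By contacts, the strongest megabase loop of the saline map was missing from the morphine list. It joined 53440001 and 55860001 on chromosome 16 over 2420 kb with 189 contacts where 4.45 were expected, a 42.4-fold enrichment (36.6 to 48.9), merged from 8 pixels. The nearest morphine loop was 1100 kb away at the farther anchor, and the authors' deposited differential list did not hold the loop. It was the outermost of 4 saline megabase loops in the same stretch, with 189, 35, 30 and 20 contacts. The morphine map had 0 megabase loops there, although 10 shorter morphine loops lay inside the stretch and both maps called the same domain over it. Whether contacts were present in the morphine map but not called cannot be read from a loop list.

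The other megabase loops richest in contacts were shared. On chromosome 1 the loop from 137650001 to 139590001 held 62 saline and 119 morphine contacts. On chromosome 9 the loop from 560001 to 2910001 held 45 saline and 153 morphine contacts, the most of any morphine megabase loop. On chromosome 11 the loop from 114700001 to 115800001 held 26 and 99 contacts. On chromosome 9 the loop from 50090001 to 51950001 went the other way, with 56 saline contacts and 22 at its morphine partner, which was called with 5 kb rather than 10 kb anchors, a pixel of a smaller area.

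Most megabase loops stayed inside a single domain. Both anchors lay in the same domain for 110 saline loops (70.1%, 62.2 to 77.1) and 158 morphine loops (63.5%, 57.1 to 69.4). Of all positions on the domain maps, taken at the same spans, 38.5% and 36.6% would have had both ends in a single domain. The shares were lower than at loops of 500 kb to under 1 Mb (85.6% and 80.9%) by 15.5 (7.99 to 23.7) and 17.4 (10.9 to 24.2) percentage points, a class for which the same positions gave 69.1% and 67.7%. Between the maps the share differed by -6.61 points, morphine minus saline, with an interval of -15.6 to 2.89 that includes 0.

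The share was lower at longer spans in the morphine map, with 73.0% between 1 and 1.5 Mb, 65.3% between 1.5 and 2 Mb and 31.3% at 2 Mb or more. In the saline map it was 73.2%, 81.3% and 46.4%. The median domain was 2040 kb long in the saline and 2000 kb in the morphine map. Longer loops thus have fewer domains that could hold them. The share of positions was not computed for these span classes, so whether their loops lay above or below it was not tested. Placed on the domains of the other group instead of their own, 71.3% of saline and 63.1% of morphine megabase loops lay in a single domain, so the choice of domain map made little difference.

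**Figure D3:**
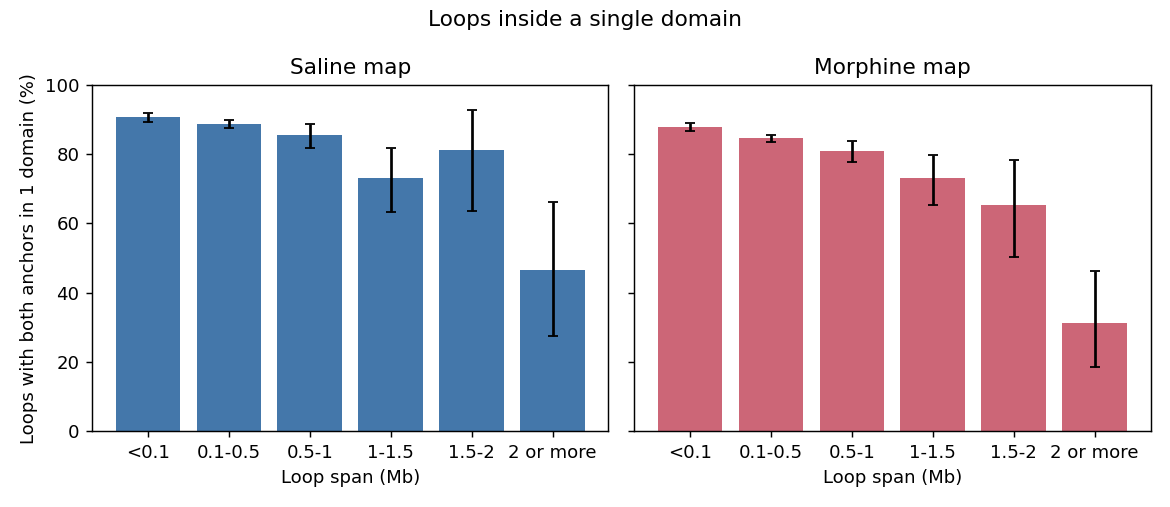
Percent of loops with both anchors in the same domain (vertical axis) by loop span in Mb (horizontal axis), saline on the left and morphine on the right; bars start at 0 and error bars are 95% Clopper-Pearson intervals. The lowest bars are those of loops of 2 Mb or more, at 46.4% and 31.3%. The share of positions with both ends in a single domain was not computed for this class.

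Megabase loops inside a single domain lay in 81 domains of the saline and 105 of the morphine map, with a median length of 2560 kb in both. A domain must be longer than the loop it holds, so this length is set in part by the span limit. Within these domains the median loop took up 55.7% of the domain in the saline and 54.8% in the morphine map, and 14 and 15 loops took up at least 80%. Loops that ran from end to end of a domain were rare, with 3 in the saline and 2 in the morphine map.

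Over all megabase spans, anchors lay at boundaries more often than positions in general, but most did not. Of the 314 saline loop ends 31 (9.87%, 6.81 to 13.7) and of the 498 morphine ends 48 (9.64%, 7.19 to 12.6) lay within 40 kb of a boundary, where 5.38% and 5.58% of all positions do. Between 1 and 1.5 Mb the shares were 7.73% (4.39 to 12.4) and 7.57% (4.86 to 11.1). Between 1.5 and 2 Mb they were 4.69% (0.977 to 13.1) and 9.18% (4.29 to 16.7). All of these intervals include the share of positions in the same map. At spans of 2 Mb or more the shares were 23.2% (13.0 to 36.4) and 16.7% (9.84 to 25.65), with intervals above it. At least 1 such anchor was found in 28 saline (17.8%) and 46 morphine megabase loops (18.5%). This exceeded the share at loops of 500 kb to under 1 Mb by 3.92 points in the saline map (-2.41 to 11.3) and by 6.27 points in the morphine map (1.18 to 12.0). The first interval includes 0 and the second does not; whether the maps differ in this was not tested.

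A boundary lay between the anchors of 29 saline and 70 morphine megabase loops. Of these, 23 and 54 had 1 boundary between their anchors and 6 and 16 had 2, and none had 3 or more. Crossing loops were longer (median 1860 kb in the saline and 1842.5 kb in the morphine map) than loops inside a domain (1330 and 1285 kb), and more enriched: 20.9 (10.3 to 41.4) against 7.73 (7.16 to 8.92) in the saline map and 13.2 (9.91 to 21.4) against 6.33 (5.67 to 6.94) in the morphine map. Their contacts were not higher, with medians of 13 and 15 against 15 and 16.5. Of the loops with an expected value under 0.5, 10 of 21 saline and 17 of 25 morphine loops crossed a boundary.

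Crossed boundaries had scores near those of other boundaries. In the authors' boundary score, whose scale is not stated, the median was 0.749 (0.555 to 0.970) at the 31 boundaries crossed in the saline map and 0.677 at the others, and 0.669 (0.581 to 0.789) at the 58 crossed in the morphine map and 0.653 at the others. Both intervals include the value of the boundaries not crossed. Among loops over 2 boundaries, the 3 longest of the saline map were the loop of 3690 kb on chromosome 13, the weaker loop of 3650 kb on chromosome 8, and a loop on chromosome 19 from 47870001 to 51050001 (3180 kb, 56.2-fold). In the morphine map they were the loops of 3680 kb on chromosome 13, 3610 kb on chromosome 3 and 3540 kb on chromosome 10. The boundary under most megabase loops, on chromosome 9 from 29840001 to 29880000 with a score of 0.625, was crossed by 7 morphine loops, while no boundary of the saline map was crossed by more than 2. The other boundaries crossed by 3 or more morphine loops had higher scores, from 0.650 to 3.06.

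A partner in the other map, with both anchors overlapping after an extension of 10 kb, was found for 96 of 157 saline loops (61.1%, 53.1 to 68.8) and 95 of 249 morphine loops (38.2%, 32.1 to 44.5). These shares lie near those of all loops, which were 62.4% and 40.8%. Every partner was itself a megabase loop. Matched loops were the better measured ones: in the morphine map they held a median of 20 contacts against 15 at unmatched loops, and 80% against 52.6% passed the strict limit on all 4 backgrounds. In the saline map the medians were 15 and 13 contacts and the shares 75% and 63.9%. The part of depth in which loops found a partner was not tested.

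At the 95 reciprocal pairs the morphine loop usually held more contacts but was less enriched. Contacts were higher in the morphine map in 63 pairs (66.3%), with a median ratio of morphine over saline of 1.25 (1.12 to 1.36). At the 76 pairs with anchors of the same size, the median ratio of contacts was 1.32 (1.12 to 1.46). Expected contacts were higher there by a median ratio of 1.63 (1.39 to 1.80), near the 1.70 of all matched loops with anchors of the same size. Enrichment was the lower value in the morphine map in 65 of 95 pairs (68.4%, 58.1 to 77.6). It was lower in 60.9% of all matched loops and in 66.1% of those of 500 kb to under 1 Mb. Its median ratio was 0.803 (0.758 to 0.909), against 0.894 (0.881 to 0.910) for all matched loops and 0.857 (0.792 to 0.912) at 500 kb to under 1 Mb.

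Larger shifts were mostly downward. Enrichment was at least 1.5-fold lower in the morphine map in 30 pairs (31.6%, 22.4 to 41.9). This was so for 20.9% of all matched loops and 25.8% (20.5 to 31.7) of those of 500 kb to under 1 Mb. It was at least 1.5-fold higher in 9 pairs (9.47%), where 9.71% of all matched loops and 9.68% of that shorter class were. The interval of the downward share starts just above the share of all matched loops, which includes the megabase pairs, and holds that of the shorter class. Pair by pair, the counting interval of the ratio lay below 1 in 14 pairs, above 1 in 5 and included 1 in 76. This interval takes the expected contacts as exact and is therefore too narrow. It is also set against 1, while the median ratio of all matched loops was 0.894. No such tally is given for all matched loops, so it does not count pairs that differ from the general shift between the maps. The median ratio against the lower left, horizontal and vertical backgrounds was 0.808, 0.819 and 0.830. The order of loops was largely kept, with a Spearman's correlation between the maps of 0.824 for enrichment and 0.486 for contacts over the 95 pairs.

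**Figure D4:**
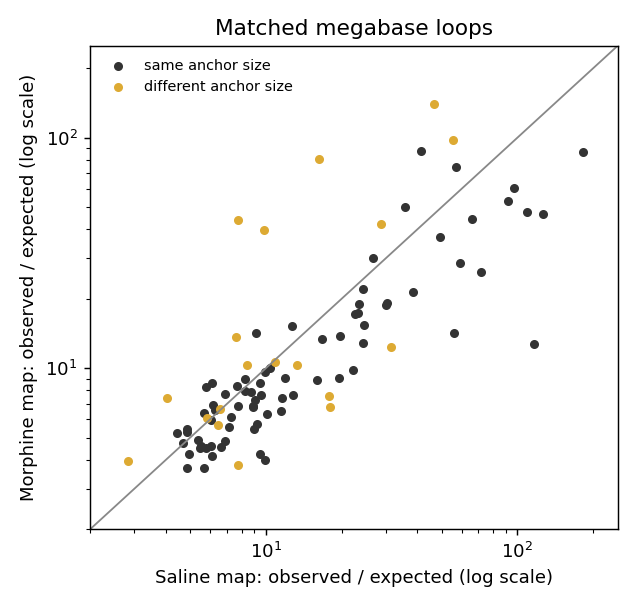
Enrichment in the morphine map (vertical axis, log scale) against enrichment in the saline map (horizontal axis, log scale) for the 95 matched megabase loops, with pairs of equal and of different anchor size marked apart. More pairs lie below the line of equality (65) than above it, and 4 of the 5 highest ratios belong to pairs of different anchor size.

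The 4 pairs with the lowest ratios had an expected value under 0.5 in the saline map. The lowest was on chromosome 7, where the saline loop from 53080001 to 55360001 held 15 contacts against 0.129 expected (116-fold) and the morphine loop from 53070001 held 23 against 1.80 (12.8-fold), a ratio of 0.110 (0.0549 to 0.226). Contacts and expected contacts were both higher in the morphine map, the expected ones by more. The next were the chromosome 19 loop from 47870001 (56.2-fold and 14.2-fold, ratio 0.253), the longest loop on chromosome 13 (0.362), and the chromosome 3 loop from 123320001, where contacts went from 12 to 32 while enrichment went from 126-fold to 46.5-fold (0.368). The fifth, on chromosome 3 from 121275001 (0.380), compared 5 kb with 10 kb anchors.

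Of the pairs with the highest ratios, only the loop on chromosome 9 from 560001 had anchors of the same size in both maps. Its enrichment was 41.4-fold in the saline and 87.7-fold in the morphine map, a ratio of 2.12 (1.51 to 3.03). The other ratios were 5.66 for the chromosome 9 loop from 50090001, 4.96 for the chromosome 10 loop from 66340001, 4.03 for the chromosome 7 loop from 168060001 and 3.01 for the chromosome 19 loop from 14710001. In each of these the saline loop had 10 kb and the morphine loop 5 kb anchors. Among the 76 pairs of equal anchor size, 2 were at least 1.5-fold higher, 26 at least 1.5-fold lower and 58 (76.3%, 65.2 to 85.3) lower by any amount. Their median ratio was 0.766 (0.686 to 0.847). Among the 2267 matched pairs of equal anchor size at any span, 95 were at least 1.5-fold higher, 505 at least 1.5-fold lower and 1572 (69.3%) lower. The median there was 0.844 (0.832 to 0.858). Both megabase intervals include the value of all spans.

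Few megabase loops were in the authors' differential lists. The saline list held 1 of 157 (0.637%), where 3.69% of all saline loops were listed, and the morphine list 17 of 249 (6.83%, 4.03 to 10.7), where 7.09% of all morphine loops were. The morphine share lies near that of all loops. None of the 18 had a partner in the other map. The sources used here do not give the authors' criteria for these lists.

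The listed megabase loops were weak ones. The 17 morphine loops held 8 to 18 contacts, with a median of 13, and were enriched 2.89- to 13.0-fold, with a median of 5.55 against 7.54 (6.80 to 8.46) at the other morphine megabase loops. All 4 false discovery rates were at or under 0.01 in 4 of them, 14 were merged from 1 or 2 pixels, and 6 crossed a boundary. Of all 249 morphine megabase loops, 157 met that limit and 70 crossed a boundary. Their median was 2 merged pixels, so most of them were also merged from 1 or 2. The 154 morphine megabase loops without a partner, which include these 17, had a median of 15 contacts and an enrichment of 6.47 (5.67 to 7.33). Of those 154, 52.6% met the limit. The most enriched of the listed loops were on chromosome 3 from 50550001 to 52070001 (13.0-fold, 12 contacts), chromosome 10 from 63640001 to 65300001 (9.91-fold, 13 contacts) and chromosome 15 from 94710001 to 95880001 (9.20-fold, 13 contacts). The longest, on chromosome 20 from 5560001 to 7900001, spanned 2340 kb with 9 contacts. The single saline loop, on chromosome 13 from 60110001 to 61350001, held 9 contacts (4.71-fold).

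The remaining 13 listed morphine loops were spread over 8 chromosomes. Chromosome 19 held 3 of them, starting at 20280001, 45460001 and 47630001. Chromosome 2 had loops starting at 62310001 and 85790001, chromosome 15 at 2390001 and 69550001, and chromosome 16 at 10680001 and 64090001. Single loops started at 6920001 (chromosome 1), 10370001 (chromosome 12), 33710001 (chromosome 14) and 71310001 (chromosome 20). Chromosomes 10, 16, 19 and 20 together held 8 of the 17, where they held 25.7% (20.4 to 31.6) of all morphine megabase loops and 26.8% of all morphine loops. Unlisted loops included several that were far stronger and equally without a partner. On chromosome 12 the morphine loop from 370001 to 2920001 held 33 contacts where 0.380 were expected (86.8-fold), and on chromosome 14 the loop from 1450001 to 3190001 held 43 contacts (17.7-fold), with the nearest saline loop 820 kb away.

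Megabase loops were spread unevenly over the chromosomes. Chromosome 9 held the most in both maps, 20 in the saline and 31 in the morphine map, or 7.12% (4.40 to 10.8) and 7.73% (5.31 to 10.8) of its loops. Pooled over the other chromosomes, the shares were 2.62% and 2.72%, a difference of 4.50 (1.99 to 8.14) and 5.01 (2.75 to 8.07) percentage points. Single chromosomes of that pool ranged in the saline map from 0.280% (chromosome 14) to 6.22% (chromosome 20, 3.25 to 10.6) and 6.25% (chromosome X, 1.73 to 15.2). In the morphine map they ranged from 0.982% (chromosome 14) to 5.36% (chromosome 3, 3.50 to 7.82). These upper intervals overlap that of chromosome 9 in the same map. Chromosome 9 was singled out after its counts were seen. Its loops held a median of 18.5 contacts in the saline and 18 in the morphine map, and 16 of its 20 saline loops had a partner.

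The largest ratio between the maps among chromosomes with an interval above 1 was on chromosome 10, with 15 morphine and 3 saline megabase loops (5.00, 1.41 to 26.9), followed by chromosome 19 with 15 and 5 (3.00, 1.04 to 10.6). Over chromosomes 10, 16, 19 and 20, where expected contacts at matched loops were also raised most in the morphine map, there were 64 and 29, a ratio of 2.21 (1.40 to 3.55). Loops of all spans gave 2.02 there. On the other chromosomes the ratio was 1.45 (1.15 to 1.83) for megabase loops and 1.40 for all loops. Chromosomes 2, 5, 12, 18 and X held fewer megabase loops in the morphine than in the saline map, by 1 loop each.

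**Figure D5:**
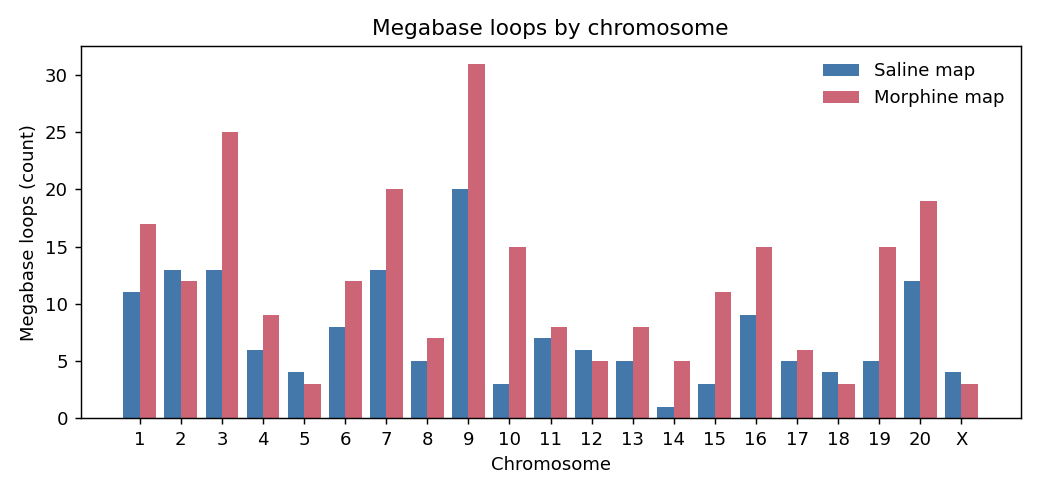
Number of megabase loops (vertical axis) on each chromosome (horizontal axis) in the saline and morphine maps. Chromosome 9 holds the most in both maps (20 and 31), and chromosome 10 has 3 saline and 15 morphine loops.

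Along chromosomes the loops fell into stretches. Joined where they overlapped, they formed 113 stretches in the saline and 155 in the morphine map, of which 29 and 45 held at least 2 loops, and covered 6.90% and 9.79% of the domain map. The fullest stretch of the morphine map, on chromosome 3 between 47970001 and 52080000, held 8 megabase loops where the saline map had 0. A stretch of chromosome 9 between 29410001 and 30910000 held 7 morphine and 3 saline megabase loops. Another, of chromosome 7 between 167955001 and 169365000, held 7 and 4, and a further saline megabase loop, from 168050001 to 169380000, ended just past it.

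The stretch on chromosome 3 was called in the morphine map only. Its 8 loops held 11 to 22 contacts and were enriched 3.85- to 171-fold, 6 of them crossed a boundary, and 10 shorter saline loops lay inside it. A stretch on chromosome 10 from 61910001 to 65620000 likewise held 4 morphine megabase loops, all crossing a boundary, and 0 saline ones beside 13 shorter saline loops. The saline counterpart was the stretch on chromosome 16 described above.

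How many megabase loops shared an anchor depended on the distance allowed. An overlapping anchor in common with another megabase loop was found for 20 saline (12.7%, 7.96 to 18.99) and 41 morphine loops (16.5%, 12.1 to 21.7). With anchors up to 10 kb apart counted as shared, the shares were 25.5% and 29.3%, and with 20 kb 37.6% and 37.8%. No anchor region carried more than 2 megabase loops in the saline map or more than 3 in the morphine map. The 3 with 3 were on chromosome 19 at 22910001 to 22920000, chromosome 20 at 2690001 to 2695000 and chromosome 3 at 51460001 to 51470000, the last within the morphine stretch just described.

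Anchors were also shared with shorter loops. An anchor that also carried a loop under 1 Mb was found for 40 saline (25.5%, 18.9 to 33.0) and 103 morphine megabase loops (41.4%, 35.2 to 47.8), and both anchors did so for 2 and 19. The median megabase loop had 2 other loops inside its span in the saline and 4 in the morphine map, and 38 (24.2%) and 34 (13.7%) had none. The morphine map held more loops to share with, and the part of that in these differences was not tested.

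Some megabase loops were nested around the same centre. Loops whose centres lay within 10 kb of each other and whose spans differed by 40 kb or more made up 8 of 157 saline (5.10%, 2.23 to 9.79) and 21 of 249 morphine megabase loops (8.43%, 5.30 to 12.6), against 0.943% and 1.62% of loops of 500 kb to under 1 Mb and 2.14% and 2.80% of loops of 100 to under 500 kb, each counted within its own class. The saline interval starts just above the share of the latter class. This pattern was looked for after values of these loops had been seen. On chromosome 9 near 30260 kb, 5 morphine loops of 1290, 1230, 1190, 1120 and 1090 kb were nested, each crossing the boundary at 29840001, and the saline map held loops of 1290 and 1200 kb there. On chromosome 7 both maps held nested loops of 1370 and 1315 kb with identical anchors, centred at 168678 and 168680 kb. Inside them lay a separate nested pair of morphine loops, of 1265 and 1010 kb, centred at 168695 and 168692 kb. The loop of 1265 kb was matched to a saline loop of 1260 kb, which did not count as nested, and the loop of 1010 kb had no saline partner.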

How the data were processed

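Hi-C was analysed from 1 loop list, 1 differential loop list and 1 domain list per group, each pooled over the group's libraries. Per the file headers, the columns of the loop lists are laid out as HiCCUPS writes them; the caller, aligner and versions used are not given in the sources used here. Observed values, as deposited, are raw counts of contacts per loop pixel, and the authors give beside them the contacts expected from 4 local backgrounds and, per the file headers, an FDR (a q-value) for each. The deposited domains lie on bins of 40 kb, with a boundary score made by the authors whose scale is not stated. The only build named in the submitters' processing notes is hg19, a human assembly whose chromosome ends the positions exceed, so no coordinate was converted and no gene was named.

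Span was the distance between anchor midpoints, with a minimum of 1000 kb. Enrichment was observed over donut-expected contacts. A boundary was the gap between adjacent domains or the outer edge of a chromosome's last one, and an anchor counted as at a boundary within 40 kb. Loops were matched across maps where both anchors overlapped after an extension of 10 kb, and reciprocal nearest matches gave the ratios. Shares have exact Clopper-Pearson intervals, ratios of counts exact conditional binomial intervals, differences of shares Newcombe intervals, medians order-statistic intervals and single loops exact Poisson intervals, all at 95%. Python 3.11.15 with pandas 2.3.3, scipy 1.17.1 and statsmodels 0.14.6 was used. Matching was tested on shifted copies of saline loops, placement on made-up loops and domains, and the median, ratio and difference intervals on random draws.

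Loops were named by rule: in each map the 5 longest, the 5 most enriched and the 5 with most contacts, all in a differential list, the 5 highest and 5 lowest ratios at matched loops, the 3 anchor regions with most megabase loops, and 3 loops per map over most boundaries (ties broken by length). The loops on chromosomes 12, 14 and 16 without a partner, the stretches and the nested loops were chosen after their values were seen. The set, its limits and the group of chromosomes 10, 16, 19 and 20 were chosen with earlier results of these data known. Alternatives covered the span minimum, the FDR limit, the background, anchor size, contacts, chromosomes, matching and boundary distances.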

Additional observations from a re-analysis of the deposited data

How the results depend on the processing

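Of 193 recomputed values under 23 alternative settings, 148 counted as the same and 45 moved. The ratio of loop numbers and the median ratio at matched loops counted as the same where their interval still excluded 1. It did so in every setting tried. A share or median of a map counted as the same where it lay within the interval of its main value. These verdicts are for each map's own value; the order of the maps turned in 11 of 86 settings of 8 measures (in 4 of them). The share with a boundary at an anchor (17.8% and 18.5%) turned in 7, among them 20.7% and 15.3% under the FDR limit; the share of loops turned at 1200 kb and under the FDR limit, the share with a common anchor with 10 kb anchors only, and median contacts when rescaled (14 and 9.44). Values are given for the saline and then the morphine map unless 1 is named. With a span minimum of 800 kb the set was 4.47% and 4.83% of loops, with median enrichment of 7.61 and 6.42; at 1200 kb it was 2.03% and 2.02%. At 1500 kb it was 1.09% and 1.15%, with enrichment of 15.7 and 11.6, an anchor shared with another member in 6.67% and 10.3%, and in the morphine map 48.5% inside a single domain and 25.8% with a boundary at an anchor. With all 4 FDR values at or under 0.01 the set was 4.30% and 4.10% of loops, enrichment was 10.2 and 10.02, and in the morphine map contacts had a median of 19, 48.4% were matched, 2.55% were in the differential list and 10.8% shared an anchor. The saline share in the differential list was 0% at 1500 kb, under that FDR limit and with at least 12 contacts. With 10 kb anchors only, the set was 4.06% and 4.91% of loops, and 9.66% of morphine members shared an anchor; without chromosomes 10, 16, 19 and 20 that share was 11.4%. Enrichment was 7.13 and 6.14 over the vertical background and 6.46 over the horizontal background in the morphine map. Morphine contacts divided by the ratio of expected contacts had a median of 9.44. With no extension 39.5% and 24.9% were matched, and with 40 kb 70.7% of saline members. With anchors within 10 kb counted as shared the shares were 25.5% and 29.3%, and within 20 kb 37.6% and 37.8%. A boundary at an anchor was found for 9.55% and 7.63% within 0 kb, 13.7% of morphine members within 20 kb, and 26.1% and 26.1% within 80 kb. Counting neighbouring megabase loops once, a setting chosen after seeing the data, moved none of its values. No paired analysis was possible because each list is pooled over its group and no column belongs to a replicate; for the same reason no replicate could be left out. Loops with 8 to 12 contacts carry wide counting error, and a loop missing from a list may have been present and not called.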
